A study of Mus musculus with 13 samples.

Results

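Cytoplasmic ribosomal protein genes encode the protein subunits of the ribosome in the cytosol. They were taken as every gene whose symbol starts with Rpl, Rps or Rplp followed by a number, together with Rpsa, leaving out the S6 kinases (Rps6k), pseudogene symbols and binding-protein symbols. This gave 85 of the 23845 genes in the deposited tables. Of these, 77 are the standard subunit genes, with 43 in the large (60S) subunit, 3 in its stalk and 31 in the small (40S) subunit, and 8 are symbols of paralogs. In all, 81 of the 85 had enough reads to be tested, among 13058 genes tested.

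RNA was sequenced from 13 lines of mammary tumour cells of FVBN/J mice, 6 wild type (WT) and 7 JNK knockout, in a study of the JNK pathway in HER2-driven breast cancer. JNK, the c-Jun N-terminal kinase, is a stress-activated kinase encoded by Mapk8, Mapk9 and Mapk10. Tumour cells were first grown on collagen I in low serum, then on uncoated dishes in medium with more serum, EGF and insulin. The labels do not give the removed JNK genes or exons, the driver of any Cre or HER2 transgene, the batch or the passage, and they pair no lines across the groups. All samples are separate lines, but the titles of WT replicates 4 and 5 share a number, so they may share an animal. P-values therefore measure the spread between these lines. Titles of WT and knockout lines begin with different letters, and a difference in colony or handling that follows the letters and the genotype cannot be told apart.

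A ribosome holds most of these proteins in equal amounts, so cells make them in step, and their mRNAs are among the most abundant of dividing cells. In mammals most of the mRNAs begin with a run of pyrimidines, the 5′ terminal oligopyrimidine (TOP) motif, through which mTOR and the RNA-binding protein LARP1 control their translation and stability. The transcription factor MYC raises ribosome production, and free Rpl5 and Rpl11, held in a particle with 5S ribosomal RNA, bind MDM2 and so stabilise p53.

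Runs of C and T, as in the TOP motif, were looked for around the annotated start of the genes, and not every gene had a long one. RefSeq (GRCm38.p6) gave a promoter entry for 64 of the 85 genes. Sequences are shown for 8 genes that are referred to below, 25 bases before and 25 bases from the annotated start, 5′ to 3′ on the gene's strand. They are 2 genes of chromosome 4, an abundant and a commonly used reference gene, a stalk gene, and the 3 genes with the smallest fold changes. Capitals mark the longest run of C and T that touches the 10 bases before or the 15 bases after the start.
Rps6, chr4:86857343-86857392, minus strand: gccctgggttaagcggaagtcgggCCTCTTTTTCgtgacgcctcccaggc
Rpl11, chr4:136053369-136053418, minus strand: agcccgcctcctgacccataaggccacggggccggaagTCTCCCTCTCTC
Rps26, chr10:128626482-128626531, minus strand: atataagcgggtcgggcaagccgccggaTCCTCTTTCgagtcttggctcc
Rpl13a, chr7:45128721-45128770, minus strand: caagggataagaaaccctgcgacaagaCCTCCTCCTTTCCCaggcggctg
Rplp2, chr7:141447626-141447675, plus strand: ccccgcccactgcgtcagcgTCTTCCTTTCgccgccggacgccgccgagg
Rpl35, chr2:39005107-39005156, minus strand: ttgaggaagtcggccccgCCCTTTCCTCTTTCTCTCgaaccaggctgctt
Rpl24, chr16:55966250-55966299, plus strand: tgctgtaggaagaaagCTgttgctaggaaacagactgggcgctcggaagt
Rpl36al, chr12:69184043-69184092, minus strand: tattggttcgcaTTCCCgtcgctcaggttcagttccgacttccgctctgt
The run in Rpl11 begins only at base 14 from the annotated start and continues past the bases shown, to 17 bases. Rpl22, also on chromosome 4, and Rps12 are not shown and had runs of 4 and 11 bases. Over the 64 ribosomal protein genes with an entry the run had a median of 7 bases and reached at least 8 in 43.75%, against a median of 5 bases and 15.2% over all 27025 promoter entries. The letters CTTTC, searched on the sense strand only from 15 bases before to 20 after the start, were found in 25% of the ribosomal protein genes and in 4.57% of all entries. A match is a description of the sequence and not a measured start site, and CTTTC lies inside many of the C and T runs.

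Depth was even, with 38298602 to 46689809 expected counts per line. Mapk8 was 29.8 ± 5.38 CPM (counts scaled to a common library size; SD, n = 6) in WT and 5.76 ± 1.32 CPM (SD, n = 7) in knockout lines, with a log2 fold change of -2.37 (edgeR quasi-likelihood test, adjusted p = 9.1e-05). Mapk9 was 60.02 ± 6.59 and 19.3 ± 5.11 CPM (log2 fold change -1.63, adjusted p = 0.00091), so both genes were lower in the lines labelled knockout. Summed CPM of 7 epithelial marker genes was 5537 to 6908 in WT and 3165 to 20539 in knockout lines. Fibroblast markers (6 genes) summed to 11.3 to 306 and 2.62 to 52.1 CPM, leukocyte markers (5 genes) to 0.21 to 6.34 and 0.025 to 1.91 CPM. Endothelial markers (4 genes) stayed at or below 0.83 CPM, and adipocyte markers (3 genes) at or below 0.046 CPM, with Plin1 and Cidec at 0. In bulk RNA, fewer cells of a type and less RNA per cell cannot be told apart.

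The ribosomal protein genes made up a larger part of the mRNA in every knockout line than in any WT line. Their summed share of expected counts was 6.01%, 4.74%, 5.32%, 5.56%, 5.78% and 6.74% in WT replicates 1 to 6. In knockout replicates 1 to 7 it was 7.19%, 7.58%, 7.45%, 7.46%, 12.4%, 7.20% and 7.14%. Knockout replicate 5 stood far above the other 6, which lay within 7.14% and 7.58%, and WT replicate 2 was the lowest line. The mean was 5.69% ± 0.67 (SD, n = 6) in WT and 8.06% ± 1.94 (SD, n = 7) in knockout lines, or 7.33% ± 0.18 without knockout replicate 5. The difference was 2.37 percentage points with that line and 1.64 without it. No test is given for this sum, because the genes were chosen with results of these lines known.

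In TPM, which divides by transcript length, the same genes held 17.3% to 23.6% of each WT line and 23.7% to 32.5% of each knockout line. The means were 20.3% ± 2.33 (SD, n = 6) and 25.9% ± 3.03 (SD, n = 7), and 24.8% ± 0.83 without knockout replicate 5. On this scale the groups were barely apart, with WT replicate 6 at 23.60% and knockout replicate 7 at 23.68%. Knockout replicate 5 was again the highest.

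**Figure D1:**
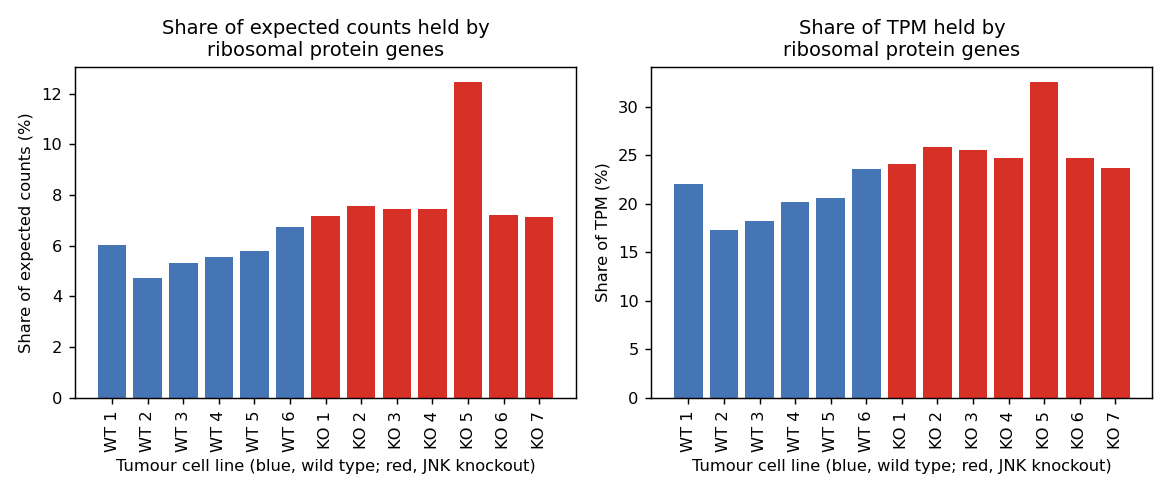
Share of each line's expected counts (left, %) and TPM (right, %) held by the 85 ribosomal protein genes, 1 bar per line, blue for WT and red for JNK knockout. All 7 knockout bars are above all 6 WT bars, by a narrow margin in TPM, and knockout replicate 5 stands at 12.4% of counts and 32.5% of TPM.

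Gene by gene, the difference ran one way. All 81 tested genes had a positive log2 fold change (knockout minus WT), from 0.11 for Rpl35 to 1.11 for Rps20, with a median of 0.58, which is a 1.49-fold difference. Over all 13058 genes the median was 0.008 and 50.6% were positive. At an adjusted p under 0.05 (edgeR quasi-likelihood test, Benjamini-Hochberg over all genes), 21 of the 81 rose in knockout lines, where 4.33% of all genes did, and 0 fell, where 4.17% of all genes did. At an unadjusted p under 0.05 there were 63, but no share over all genes is given at that threshold. In 22 of the 81 every knockout line lay above every WT line in CPM, as in 2.08% of all genes tested.

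The rise was spread over both subunits. Over all genes tested 4.33% rose. Of the 43 genes of the 60S subunit 13 rose, with a median log2 fold change over all 43 of 0.56, and of the 31 of the 40S subunit 7 rose, with a median of 0.60. Among the 3 stalk genes 1 rose (median 0.56), and of the 4 tested paralogs 0 rose (median 0.31). DESeq2 also called 0 of these 4 at its adjusted p, where 8.7% of all genes rose. At an unadjusted edgeR p under 0.05 there was 1, Rpl22l1, with no share over all genes given. A difference between these classes was not tested.

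**Figure D2:**
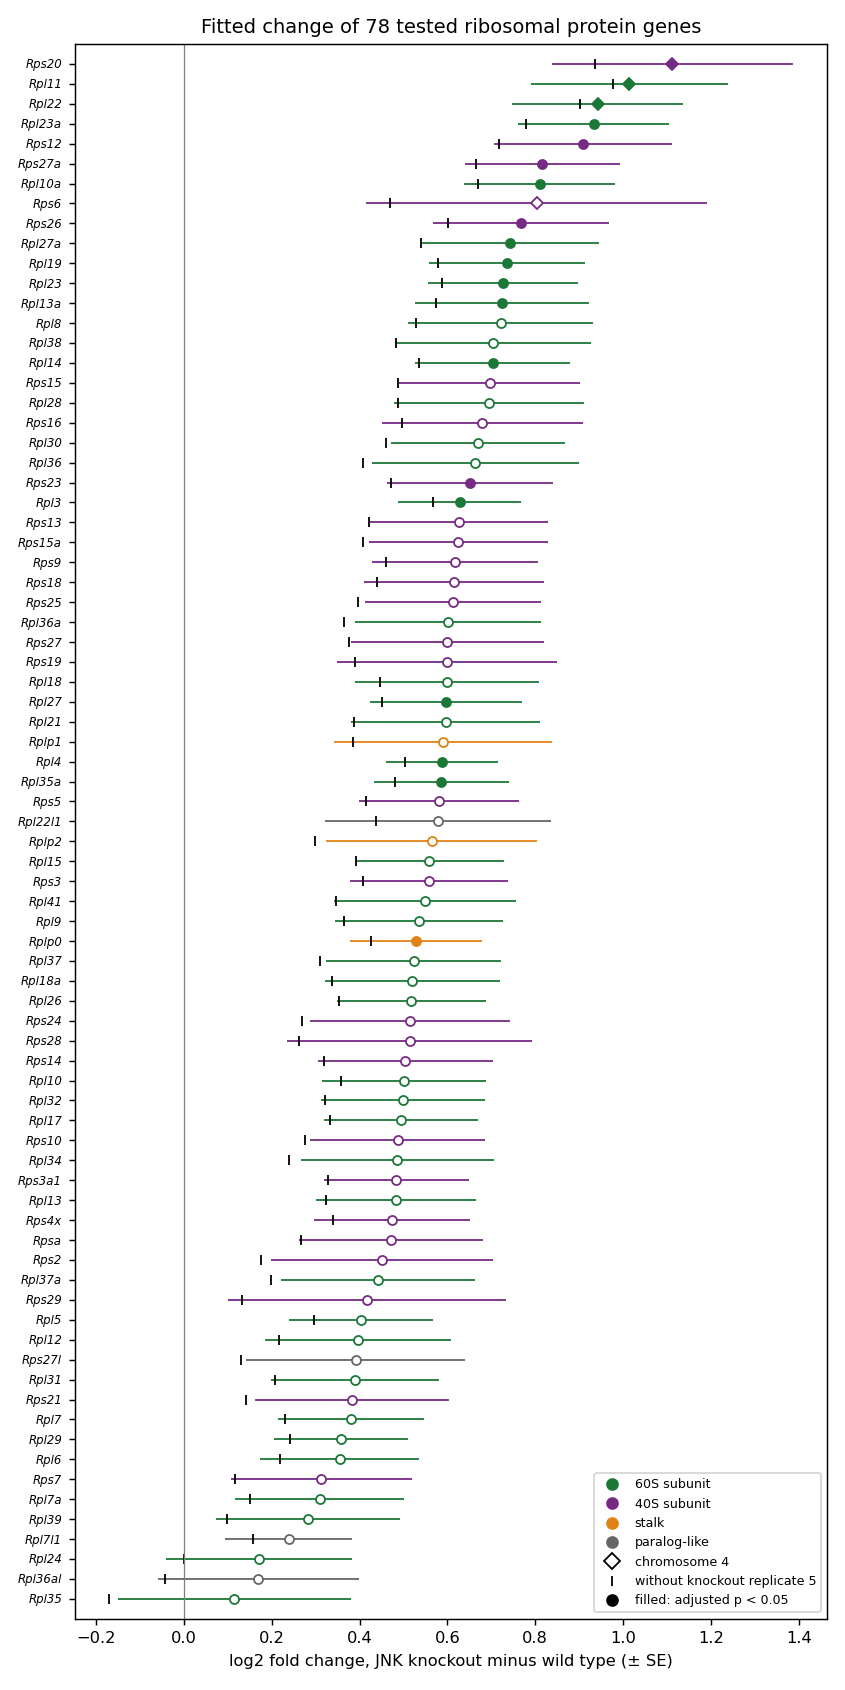
Log2 fold change (knockout minus WT, edgeR, point) with its SE (bar) for 78 of the 81 tested genes, ordered by size and coloured by subunit, with diamonds for chromosome 4, filled symbols for an adjusted p under 0.05 and a black tick for the value without knockout replicate 5. All 78 points lie right of 0, from 0.11 to 1.11, and 76 of the ticks do.

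Knockout replicate 5 stood apart in these genes. It was the highest of the 13 lines for 78 of the 81 genes, and knockout replicate 2 was highest for the other 3. At the low end, WT replicate 2 was the lowest line for 52 genes and WT replicate 4 for 17. Without knockout replicate 5 the median log2 fold change of the 81 genes went from 0.58 to 0.39, while that of all genes was -0.01. Of the 81 genes 26 then rose, against 4.05% of all genes, and all 21 genes called with it were among them. The 5 others were Rpl8, Rps15, Rpl30, Rps25 and Rpl15. Rpl35 and Rpl36al turned negative, at -0.17 and -0.04, and neither was called in any direction. In CPM, 22 genes had every remaining knockout line above every WT line (2.51% of all genes).

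The count of called genes was lower without single WT lines. It was 11 without WT replicate 2 (3.55% of all genes rose in that fit), 11 without WT replicate 4 (2.99%) and 10 without WT replicate 5 (2.91%). With the counts of WT replicates 4 and 5 summed into 1 sample it was 12 (3.06%). DESeq2 called 43 of the 81 higher (8.7% of all genes). Leaving out knockout replicate 2, the line highest in epithelial markers, as well as knockout replicate 5, which was tried after seeing the data, gave 20 (3.64%). With each of the 13 lines left out in turn it ranged from 10 to 26, where 2.5% to 5% of all genes rose. In all 13 fits 10 genes were called, a count not made over all genes. Among them were Rpl23a, Rpl22, Rpl10a, Rps27a, Rpl4, Rpl11, Rpl3, Rps12 and Rpl23.

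In TPM the groups were compared with limma on log2(TPM + 1). Here 23 of the 81 rose, against 2.25% of all genes, and 0 fell, against 7.77% (limma, Benjamini-Hochberg adjusted). By unadjusted p under 0.05 there were 45, again with no share over all genes given. The median log2 difference of the 81 genes was 0.33, but all genes had a median of -0.21, so that the ribosomal protein genes stood 0.54 above the median gene. On this scale 77 were positive, and Rpl7l1, Rpl24, Rpl36al and Rpl35 were negative. Called on both scales were 19 genes. Over all 13058 genes 712 were, counting both directions. Without knockout replicate 5, 17 were called (2.41% of all genes). The TPM count was lower without other single lines too, at 14, 10, 14, 10 and 15 without WT replicates 1 to 5, where 1.37%, 1.72%, 1.65%, 1.43% and 1.61% of all genes rose. It was 12, 12 and 14 without knockout replicates 1, 3 and 7 (1.4%, 1.58% and 1.4%), and 7 with no filter on low TPM (1.25%). In 8 genes every knockout line lay above every WT line in TPM (0.947% of all genes), among them Rps15, Rps12, Rps27a, Rpl14, Rpl10a, Rpl4 and Rpl23a, and the count was also 8 without knockout replicate 5 (1.37%).

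For single genes, 3 values given for a group are those of its lowest, median and highest line. Among the 40S genes, Rps12 was 681, 742 and 969.9 CPM over WT lines and 1098, 1407 and 2599.65 CPM over knockouts. The groups did not overlap, and the top value belonged to knockout replicate 5, the next line reaching 1505 CPM. The log2 fold change was 0.91 (SE 0.20, adjusted p = 0.017). In TPM it was 0.68 (adjusted p = 0.0074).

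Rps27a makes a fusion of ubiquitin with a 40S protein, so its product feeds both the ribosome and the ubiquitin pool. It was 449, 538 and 647 CPM over WT lines and 680.2, 854 and 1510.1 CPM over knockouts, with no overlap. The log2 fold change was 0.82 (SE 0.18, adjusted p = 0.015). Fau, the fusion gene of another 40S protein, gave 0.58 (adjusted p = 0.099). Its symbol lies outside the naming rule, so it is not counted above.

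Rps26 was the most abundant of the genes per length, with a mean of 6583 TPM over the 13 lines. It was 506, 683 and 826 CPM over WT lines and 886, 1014 and 1922 CPM over knockouts, again with no overlap. The log2 fold change was 0.77 (SE 0.20, adjusted p = 0.033), and the call held in 8 of the 13 fits with a line left out. With an offset for gene length, described further on, the value was 0.32 and did not pass (adjusted p = 0.22).

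Rps6, the substrate of S6 kinase that is widely used as a readout of mTOR activity, varied most among lines of the standard genes, with an SD of log2 CPM of 0.81. It was 622, 1089 and 1788 CPM over WT lines and 947, 1745 and 4475 CPM over knockouts. WT replicates 1, 4 and 6 were high, and only 3 of the 7 knockout lines lay above every WT line. The log2 fold change of 0.80 (SE 0.39) did not pass the test (adjusted p = 0.21).

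Rpsa, known also as a laminin receptor, was 1502, 2034 and 2266 CPM over WT lines and 2074, 2387 and 4788 CPM over knockouts. The groups overlapped, and knockout replicate 5 was far above the next line, at 2604 CPM. Its log2 fold change was 0.47 (adjusted p = 0.17).

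Of the 60S genes, Rpl23a had the lowest adjusted p. It was 643, 791 and 887 CPM over WT lines and 1200.2, 1438 and 2382 CPM over knockouts. No line of one group came near the other. The log2 fold change was 0.93 (SE 0.17, adjusted p = 0.0082), or 0.78 when knockout replicate 5 was left out (adjusted p = 0.0045).

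Rpl10a was 471, 651 and 716 CPM over WT lines and 876, 1018 and 1708 CPM over knockouts, with no overlap and a log2 fold change of 0.81 (with an SE of 0.17, adjusted p = 0.013). Rpl4 was 1572, 1754 and 1858 CPM over WT lines and 2228, 2504 and 3484 CPM over knockouts. WT lines lay close together for Rpl4, and its log2 fold change was 0.59 (SE 0.13, adjusted p = 0.015). Rpl3, whose protein reaches into the peptidyl transferase centre, was 848, 1021 and 1191 CPM over WT lines and 1236, 1637 and 2011 CPM over knockouts. Here too the groups did not overlap, and the log2 fold change was 0.63 (SE 0.14, adjusted p = 0.017). Rpl23, whose human protein binds MDM2, was 572, 782 and 931 CPM over WT lines and 1071, 1221 and 1989.5 CPM over knockouts, with no overlap (log2 fold change 0.73, adjusted p = 0.021).

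Rpl13a, often used as a reference gene in quantitative PCR, was 814, 1095 and 1371 CPM over WT lines and 1247, 1701 and 2942 CPM over knockouts. Only knockout replicate 4 fell inside the WT range. The log2 fold change was 0.72 (SE 0.20, adjusted p = 0.039), and the call held in 4 of the 13 fits with a line left out.

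The 5S particle genes differed in what passed. Rpl11 was 223, 346 and 482 CPM over WT lines and 441, 756 and 931 CPM over knockouts, and only knockout replicate 6 fell inside the WT range. It rose with a log2 fold change of 1.01 (with an SE of 0.22, adjusted p = 0.016), and narrowly missed the threshold with the length offset (0.72, adjusted p = 0.052). Rpl5 was 988, 1152 and 1425 CPM over WT lines and 1212, 1405 and 2179.5 CPM over knockouts. The groups overlapped, with 3 of 7 knockout lines above every WT line, and the log2 fold change of 0.40 did not pass (adjusted p = 0.14). The difference between Rpl11 and Rpl5 was not tested.

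The stalk, which recruits the GTPases of translation, is built on Rplp0 with copies of Rplp1 and Rplp2. Rplp0 was 1796, 2121 and 2403 CPM over WT lines and 2428, 2796 and 4273 CPM over knockouts, so that the groups lay next to each other without overlap. It rose with a log2 fold change of 0.53 (with an SE of 0.15, adjusted p = 0.047), and did not pass in TPM (0.29, limma adjusted p = 0.096). The call held in 3 of the 13 fits with a line left out, and was lost with the length offset (0.35, adjusted p = 0.078). Rplp1 was 487, 729.6 and 1119 CPM over WT lines and 802, 1027 and 2044 CPM over knockouts, and Rplp2 was 369, 498 and 586 CPM and 483, 629 and 1463 CPM. Both overlapped between the groups and neither passed (log2 fold changes 0.59 and 0.56, adjusted p = 0.15 for both).

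Some of the genes hardly differed, or their lines overlapped widely. Rpl41, which encodes the smallest ribosomal protein and was second in TPM (6561), gave a log2 fold change of 0.55 (adjusted p = 0.11), with 4 of 7 knockout lines above every WT line. Of the standard genes, Rpl29 and Rpl7 varied least over the 13 lines, with an SD of log2 CPM of 0.30 and 0.31, and gave 0.36 and 0.38 (adjusted p = 0.16 for both). Rpl35 was 532, 755 and 1058 CPM over WT lines and 582, 715 and 1712 CPM over knockouts. Without knockout replicate 5, its highest knockout line was 790.5 CPM, below the highest WT line. Its log2 fold change was 0.11 (SE 0.27, adjusted p = 0.82), and Rpl24 gave 0.17 (adjusted p = 0.64). These tests do not show that the genes were equal. Rpl35 carries the longest C and T run of the sequences shown, 18 bases, and Rpl24 one of 2 bases.

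Of the paralog symbols, 4 were tested. Rpl22l1, a paralog of Rpl22 whose transcript is repressed by Rpl22 protein in mouse cells, was 56.6, 95.2 and 135 CPM over WT lines and 98.1, 136 and 223 CPM over knockouts. WT lines fell apart into replicates 1 to 3 at the low end and 4 to 6 at the high end, and the log2 fold change of 0.58 (SE 0.26) did not pass (adjusted p = 0.17). In TPM the ratio of Rpl22l1 to Rpl22 was 4.71 ± 1.61 (SD, n = 6) in WT and 4.01 ± 1.24 (SD, n = 7) in knockout lines, so the groups overlapped. Rps27l, a p53 target gene in human cells, was 174, 234 and 269 CPM over WT lines and 183, 251 and 589.6 CPM over knockouts (log2 fold change 0.39, adjusted p = 0.34). Rpl36al was 173, 201 and 234 CPM over WT lines and 106, 211 and 410.1 CPM over knockouts. Its extremes were knockout replicates 6 and 5, and the log2 fold change was 0.17 (adjusted p = 0.68). Rpl7l1 was 133 ± 16.8 CPM over WT lines and 157 ± 31.9 CPM over knockouts (0.24, adjusted p = 0.31). The 4 untested symbols had next to no reads. Rpl10l had 0, Rpl3l 1 and Rpl39l 1 over all lines, and Rps4l had 34, of which 33 were in knockout replicate 3.

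Levels per length were compared in TPM. The 77 standard genes averaged from 166 TPM (Rps15a) to 6583 TPM (Rps26) over the 13 lines, with a median of 2887. The 5 most abundant were Rps26, Rpl41, Rps12, Rplp1 and Rpl35. Ribosomal protein genes made up 38 of the 50 most abundant genes and 77 of the top 200. Rps15a also had the longest effective length of the set, 1.90 times that of the median gene, and its counts were not whole, as in 10 of the 81 genes, among them Rpl14, Rpl22l1, Rpl5, Rplp2 and Rps23, so part of their reads was shared with other loci by the counting. Over all genes this held for 9.07%. The summed TPM of 60S genes, here with the stalk genes, over that of 40S genes was 1.43 to 1.47 in WT lines (mean 1.45 ± 0.02, n = 6). It was 1.31 to 1.504 in knockout lines (1.38 ± 0.08, n = 7), where replicates 4 and 6 stood at 1.504 and 1.47 and the other 5 were at or below 1.40.

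The chromosome on which a gene lies went with the size of its change. All 5 tested genes on chromosome 4, among them Rps20, Rpl11, Rpl22 and Rps6, were among the 9 largest fold changes of the 81, and 4 of the 5 ranked 1 to 4. Their median log2 fold change was 1.01, and 4 of them rose. Other genes on chromosome 4 were also higher, with a median of 0.41 over 764 genes, of which 109 rose (14.3%). Rps20 (chr4:3831584-3835655), Rps6 (chr4:86854099-86857367), Rpl11 (chr4:136049354-136053393) and Rpl22 (chr4:152324436-152334082) span most of the chromosome in the RefSeq annotation of GRCm38.

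Rps20 was 271, 475 and 638 CPM over WT lines and 516, 949.9 and 1705 CPM over knockouts. Knockout replicate 6 alone fell inside the WT range, and the log2 fold change was 1.11 (SE 0.28, adjusted p = 0.026). The call held in 11 of the 13 fits with a line left out. It was lost without WT replicate 2 (adjusted p = 0.052), without WT replicate 5 (adjusted p = 0.058), without knockout replicates 2 and 5 together (adjusted p = 0.0659) and with the length offset (0.70, adjusted p = 0.068). Rpl22, a 60S protein gene, was 125, 158 and 180.3 CPM over WT lines and 169, 318 and 394 CPM over knockouts, and again knockout replicate 6 alone fell inside the WT range. Its log2 fold change was 0.94 (SE 0.19, adjusted p = 0.012).

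The lines did not share this pattern evenly. Relative to the WT mean, the median log2 CPM of the 5 genes on chromosome 4 was 1.04, 1.41, 1.26, 0.58, 1.35, 0.22 and 0.88 in knockout replicates 1 to 7, and -0.31 to 0.52 in WT lines. The other 764 genes of the chromosome stood at 0.59, 0.68, 0.67, 0.28, 0.25, -0.09 and 0.54 in the same knockout lines, and between -0.11 and 0.15 in WT lines. Knockout replicate 6 was thus the lowest knockout line in both, and WT replicate 6 lay above it for the ribosomal protein genes. The 76 ribosomal protein genes outside chromosome 4 were at 0.32, 0.48, 0.39, 0.32, 1.37, 0.42 and 0.29 in knockout lines and -0.28 to 0.25 in WT lines. For them knockout replicate 6 was level with the other knockout lines and above every WT line. The number of copies of chromosome 4 was not measured, and its part in the result was not tested.

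**Figure D3:**
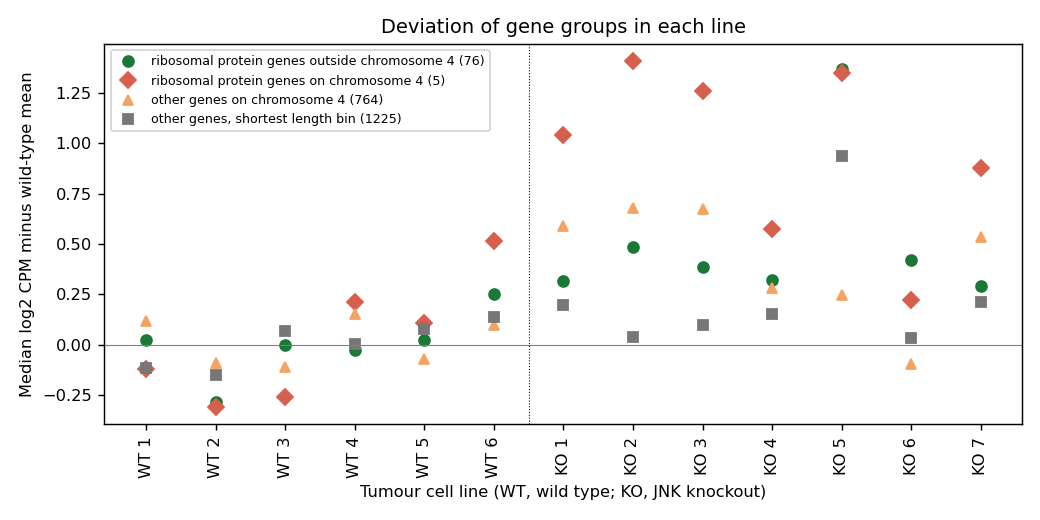
Median log2 CPM relative to the WT mean in each of the 13 lines, for the 76 ribosomal protein genes outside chromosome 4 (green), the 5 on it (red), the 764 other genes of chromosome 4 (orange) and the 1225 other genes of the shortest bin by effective length (grey). The green points of all 7 knockout lines are above those of all WT lines, at 0.29 to 1.37, while the red and orange points of knockout replicate 6 are low, at 0.22 and -0.09.

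The genes outside chromosome 4 were positive as well. The 76 remaining genes had a median log2 fold change of 0.56, and 0.37 without knockout replicate 5. Of these 76, 17 rose with all lines and 22 without that line, where 4.33% and 4.05% of all genes did. On chromosome 11, 5 of 7 genes rose (Rpl23a, Rps27a, Rpl19, Rpl23 and Rpl27, median of the 7 genes 0.73), against a median of 0.19 and 7.36% raised among 1033 other genes. Chromosomes 2 and 12 were at the other end, with medians of 0.35 (4 genes) and 0.31 (3 genes), where the other genes had -0.18 and -0.16. On chromosome 11, the call of Rpl27 (edgeR adjusted p = 0.049) held in 3 of the 13 fits with a line left out. Rpl27 did not pass in TPM (limma adjusted p = 0.071) or with the length offset (edgeR adjusted p = 0.081). Over the 19 chromosomes that hold a tested ribosomal protein gene, the median of these genes followed that of the other genes (Pearson r 0.92, Spearman rho 0.86), and without chromosome 4 both were 0.84 over 18. The points share libraries, scaling and depth, so this is a description. The 69 genes outside chromosomes 4 and 11 had a median of 0.53, and 12 of them rose, against 4.33% of all genes.

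**Figure D4:**
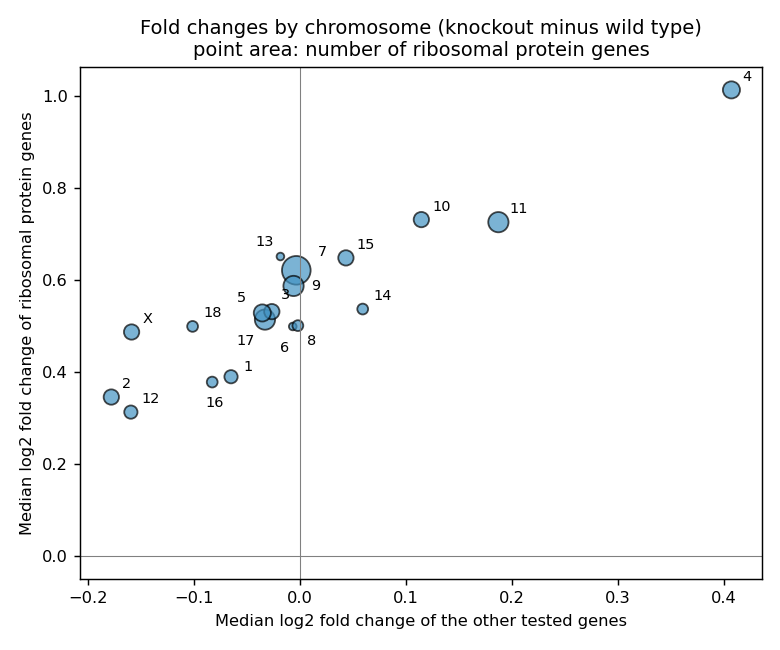
Median log2 fold change (knockout minus WT) of the ribosomal protein genes on a chromosome (vertical axis) against that of all other tested genes on it (horizontal axis), 1 point for each of 19 chromosomes, with the area set by the number of ribosomal protein genes. All points are above 0 on the vertical axis, from 0.31 for chromosome 12 to 1.01 for chromosome 4.

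Short transcripts as a whole also had a positive median fold change, though not every knockout line lay above the WT lines. Ribosomal protein mRNAs are short, with an effective length of 0.18 times that of the median gene (median of 81), from 0.039 for Rps28 to 1.90 for Rps15a, and 67 of the 81 fell in the shortest of 10 equal bins of genes by length. Other genes in that bin had a median log2 fold change of 0.26, falling bin by bin to -0.20 among the longest. The 67 ribosomal protein genes of the shortest bin had 0.58. Without knockout replicate 5 these values were 0.11, -0.12 and 0.38. That line was the extreme, with short genes at 0.94 and the longest bin at -0.78 relative to the WT mean, and the ribosomal protein genes at 1.35. The short genes of knockout replicates 1, 4 and 7 stood at 0.20, 0.15 and 0.21. Those of knockout replicates 2, 3 and 6, at 0.038, 0.097 and 0.035, lay inside the WT range of -0.15 to 0.14. Among the 81 genes themselves the fold change did not follow length (r 0.005, rho -0.003, across genes, which are not independent).

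With an offset in the edgeR fit for the trend over effective length in each line, the median log2 fold change of the 81 genes was 0.24, and 14 rose, against 4.2% of all genes. Of the 21 called without the offset 13 were among these 14. With the offset and without knockout replicate 5 it was 13 genes (4.05% of all genes). With the offset and all lines 72 were positive and 9 were negative, among them Rps28, Rps29, Rps27l, Rpl39, Rpl24, Rpl36al and Rpl35. Such an offset also takes up any change that short genes share. The ribosomal protein genes were kept in the curve, so it can also take up part of their own change. With it, other genes of the shortest bin had a median of -0.023, and the 67 ribosomal protein genes there had 0.21. The part of length in the result was not tested beyond this. The 13 genes called with all lines, without knockout replicate 5, in TPM and with the offset included Rpl22, Rpl23a, Rps12, Rps27a, Rpl10a, Rpl27a, Rpl19, Rpl23, Rpl13a, Rpl14, Rpl3 and Rpl4. Over all 13058 genes, 533 were called in all of these fits, counting both directions.

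**Figure D5:**
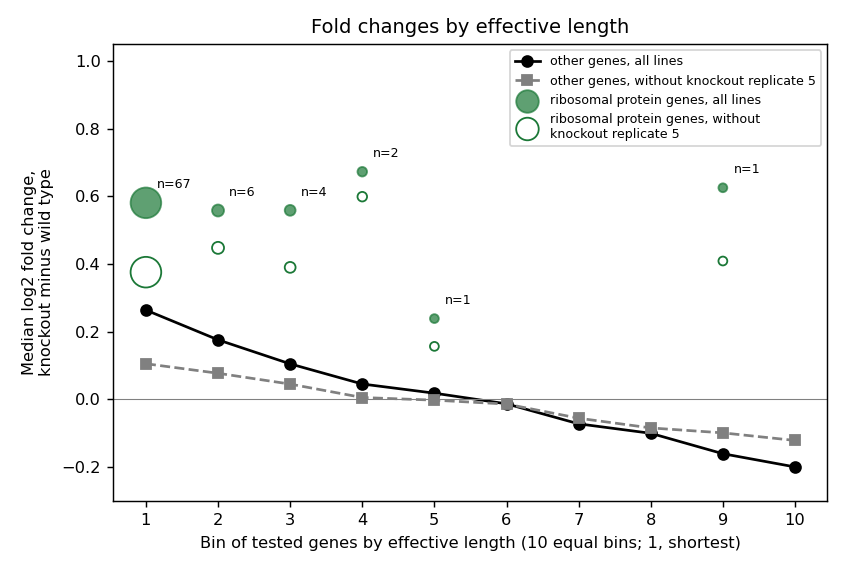
Median log2 fold change (knockout minus WT) in 10 equal bins of tested genes by effective length, 1 being the shortest, for other genes with all lines (black) and without knockout replicate 5 (grey), and for ribosomal protein genes (filled and open green circles, with their number). Other genes run from 0.26 to -0.20, and the 67 ribosomal protein genes of the shortest bin lie above them at 0.58, or 0.38 without the line.

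Genes that work with the ribosome were read from lists chosen with earlier results of these lines known. Calls in the lists are those of expected counts. Their counts stand beside those over all genes tested, of which 4.33% rose, 4.17% fell and 50.6% were positive, and 4.05% rose without knockout replicate 5. Of 23 other genes whose mRNAs carry the TOP motif or belong to the translation machinery, 6 rose and 0 fell, all 23 were positive, and the median log2 fold change was 0.40 (0.33 without knockout replicate 5, when 7 rose, and 0.21 with the length offset). Eef1b2, a subunit of the elongation factor that recharges eEF1A, was 492 ± 65.5 CPM over WT lines and 850.1 ± 201 CPM over knockouts (0.79, adjusted p = 0.011). Gnb2l1, which encodes the 40S-bound scaffold RACK1, was 1369 ± 136 and 2128 ± 349 CPM (0.64, adjusted p = 0.013). Npm1, a nucleolar chaperone of ribosome assembly, gave 0.75 (adjusted p = 0.019) and the import receptor gene Ipo5 0.65 (adjusted p = 0.026). In TPM Eef1b2, Gnb2l1 and Npm1 also passed (limma adjusted p = 0.0089, 0.017 and 0.046), and Ipo5 did not (0.42, adjusted p = 0.16). The other 2 were Eef2 and Eif3h. Of 9 host genes of small nucleolar RNAs 3 rose (median 0.74), namely Snhg12 (1.62, adjusted p = 0.018) and Snhg3 (1.15, adjusted p = 0.034), both on chromosome 4, and Snhg1 (0.90, adjusted p = 0.025). Levels of Snhg12 were low, at 5.26 ± 1.10 CPM over WT lines and 16.2 ± 10.8 CPM over knockouts. Its groups overlapped, and its highest knockout line was 39.1 CPM against a knockout median of 13.4. Snhg3 was lower still, at 2.63 ± 0.46 and 5.85 ± 2.42 CPM. When knockout replicate 5 was left out 2 of the 9 rose, and Snhg3 narrowly missed (1.09, adjusted p = 0.051). Snhg3 also missed with limma-voom (adjusted p = 0.065) and with any single WT line left out. With the length offset Snhg3 (0.77) and Snhg1 (0.50) did not pass (adjusted p = 0.11 for both).

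Of 54 genes of ribosome biogenesis 4 rose, against 4.33% of all genes, and 0 fell, with a median of 0.31. Without knockout replicate 5 it was 3, and Nop16 narrowly missed (0.48, adjusted p = 0.051). The 4 were Pes1 (0.50, adjusted p = 0.011), Npm1, Nhp2, a core protein of H/ACA particles (1.04, adjusted p = 0.029), and Nop16 (0.59, adjusted p = 0.038). Nop16 also lost its call without WT replicate 1, 2, 3 or 5, without knockout replicate 1, 3 or 7, and with library size alone. In TPM Npm1 and Nhp2 passed (limma adjusted p = 0.046 and 0.044), and Pes1 (0.27) and Nop16 (0.36) did not (adjusted p = 0.13 and 0.11). By unadjusted p under 0.05, 1 of the 54 was lower, with no share over all genes given. Among 36 genes of initiation factors 3 rose and 0 fell, with a median of 0.22, and 3 also rose without knockout replicate 5. Eif3i (0.93, adjusted p = 0.0045) and Eif2b3 (1.06, adjusted p = 0.043) lie on chromosome 4, where 14.3% of the genes that encode no ribosomal protein rose, and Eif3h (0.41, adjusted p = 0.049) does not. The call of Eif2b3 was lost without knockout replicate 5 (1.08, adjusted p = 0.058). Both Eif2b3 (0.94, adjusted p = 0.072) and Eif3h (0.23, adjusted p = 0.096) missed with the length offset. Both also missed with any single WT line left out, with library size alone and with no filter on low counts. With limma-voom their adjusted p were 0.069 and 0.0501. In TPM Eif3i passed (limma adjusted p = 0.012), and Eif2b3 (0.74) and Eif3h (0.18) did not (adjusted p = 0.11 and 0.18).

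In the list of mTOR, LARP and MYC regulators 2 of 16 rose and 0 fell (median 0.19), with all lines and without knockout replicate 5. Myc, which drives ribosome production, was 187 ± 34.1 CPM over WT lines and 304 ± 35.2 CPM over knockouts, with no overlap between the groups in CPM (0.70, adjusted p = 0.010). In TPM its groups overlapped, and it narrowly missed (0.48, limma adjusted p = 0.055). Rps6kb1, the S6 kinase that phosphorylates Rps6, was 68.9 ± 9.03 and 99.7 ± 13.4 CPM (0.53, adjusted p = 0.020), and did not pass in TPM (0.29, limma adjusted p = 0.25). In the family of 10 S6 kinase genes Rps6kb1 alone rose, and Rps6kl1 fell, from 3.08 ± 4.27 to 0.087 ± 0.047 CPM (adjusted p = 0.0060). Rps6kl1 narrowly missed in TPM (-1.25, limma adjusted p = 0.052). These mRNA levels do not measure kinase activity or translation. Mitochondrial ribosomal protein genes, which build the separate ribosome of the mitochondrion, showed 10 of 77 raised, against 4.33% of all genes, and 0 lowered, with a median of 0.30 that came to 0.14 without knockout replicate 5, when 8 rose, and 0.089 with the length offset. The lowest adjusted p were those of Mrpl20 (1.09, adjusted p = 0.0068) and Mrps15 (0.89, adjusted p = 0.0082), both on chromosome 4. In the lists other than those of biogenesis and of S6 kinases, 0 genes were lower at an unadjusted p under 0.05, with no share over all genes given. DESeq2 called 0 lower in each list other than that of S6 kinases, where it called 1, against 7.52% of all genes.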

How the data were processed

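The deposited expected counts per gene and TPM were made by the authors with RSEM after trimming with cutadapt, on builds mm10 and GRCm38, per the submitters' processing notes. The aligner, annotation release, tool versions and strand use were not given in the sources used here. RSEM divides reads that match several loci among them by a model, and ribosomal protein genes have many near-identical pseudogene copies, so single genes are uncertain to that extent. TPM, per the submitters' processing notes from the same tool, is scaled for length to a common sum, so a larger share of 1 gene group lowers all others.

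From the deposited files, expected counts were rounded to whole numbers, filtered with filterByExpr, scaled by TMM and tested with the quasi-likelihood F test of edgeR (version 4.0.16, R 4.3.3), with genotype as the only term and Benjamini-Hochberg adjustment over 13058 genes at a threshold of 0.05. The biological coefficient of variation was 0.548. The standard error is the size of the log2 fold change divided by the square root of F. TPM values were compared with limma 3.58.1 (trend) on log2(TPM + 1), for genes with a mean TPM of at least 1, which understates the change of low genes. Effective length was read from the ratio of counts to TPM, and the length offset was a loess curve (span 0.3) of each line's log ratio over length. The curve was fitted over all tested genes with a length, the ribosomal protein genes included. Fits were tested on simulated data. The closest libraries, WT replicates 1 and 6, had a chi-square of 77.5 per gene between them, far above sampling noise. Gene positions came from RefSeq GRCm38 by symbol for all 81 tested ribosomal protein genes and 12373 of all 13058. A count was called not whole when it was more than 0.005 from a whole number in any line.

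The gene set, the lists and the tests were chosen with earlier results of these data known. Genes named by rule were Mapk8, Mapk9, the 10 called ribosomal protein genes with the lowest adjusted p, the 5 highest in TPM, the 3 most and 3 least variable, the tested paralogs, the stalk and 5S particle genes, Rpsa, Rps6, Rpl13a, and up to 4 called genes of each other list. Other genes were named after their values were seen. Alternatives were other scalings (DESeq2 size factors, library size, upper quartile, TMM without the ribosomal protein genes), filters and tests (DESeq2 1.42.0, limma-voom), the length offset, WT replicates 4 and 5 as 1 sample, and each line left out. A few genes are counted in the totals but not reported here one by one.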

Additional observations from a re-analysis of the deposited data

Results flagged for a closer look

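In knockout replicate 5, 21 of the ribosomal protein genes examined one by one, and both summed shares, lay far from the other 6 knockout lines (gap to the nearest line over the whole range above 0.568, Dixon's 95% value for 7 lines). By chance about 1 in 20 independent groups would be picked out this way. Here 23 of 68 groups were, all 23 in this line, and the genes are not independent of each other. Leaving out this line was also planned beforehand, with earlier results of these data known. These counts therefore describe the line and are not a test of it. The line held 12.4% of counts and 32.5% of TPM in ribosomal protein genes, where the other knockout lines held 7.14% to 7.58% and 23.7% to 25.9%.

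For the 40S genes the CPM values of this line were 1510.1 for Rps27a (other knockout lines 680.2 to 996), 2599.65 for Rps12 (1098 to 1505), 4475 for Rps6 (947 to 2156), 4788 for Rpsa (2074 to 2604) and 1903 for Rps23 (869 to 1143). The 60S genes with such values were Rpl23a at 2382 CPM (1200.2 to 1448), Rpl10a at 1708 (876 to 1164), Rpl4 at 3484 (2228 to 2637), Rpl23 at 1989.5 (1071 to 1267), Rpl41 at 1972 (808 to 1126), Rpl35 at 1712 (582.1 to 790.5), Rpl7 at 2811 (1452 to 1813), Rpl27a at 1769.7 (707 to 1083), Rpl19 at 2833 (1323 to 1849), Rpl14 at 1669 (842 to 994) and Rpl35a at 356 (221 to 259). Among stalk genes and paralogs they were Rplp1 at 2044 CPM (802 to 1269), Rplp2 at 1463 (483 to 748), Rpl36al at 410.1 (106 to 224), Rpl22l1 at 223 (98.1 to 150.1) and Rps27l at 589.6 (183 to 327). The other genes of the shortest of 10 length bins stood at 0.94 above the WT mean on the log2 scale in this line and the longest bin at -0.78, and whether handling, RNA quality or growth of this line goes with these values was not tested.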

How the results depend on the processing

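The 21 ribosomal protein genes called in counts became 43 with DESeq2 (8.7% of all genes then called higher), 12 with WT replicates 4 and 5 summed, and 10 to 26 with 1 line left out. They were 14 with the length offset, and 13 with the offset and without knockout replicate 5, an alternative chosen after seeing the data, as was leaving out knockout replicates 2 and 5, which gave 20. Other scalings, filters and limma-voom gave 15 to 22, where 3.08% to 4.55% of all genes rose. In TPM the 23 called became 7 with no filter on low TPM (1.25% of all genes). They were 10 to 22 with 1 line left out, where 1.37% to 2.59% of all genes rose. The median log2 fold change of 0.58 went to 0.24 with the offset and 0.22 with the offset and without knockout replicate 5, and to between 0.39 and 0.61 with 1 line left out. The difference in summed share, 2.37 points of counts, was 5.56 points of TPM and 1.64 to 2.58 with 1 line left out. Reversed values were those of Rpl35 (-0.36 with the offset, -0.17 without knockout replicate 5, -0.41 with both and -0.19 without knockout replicates 2 and 5), Rpl36al (-0.25, -0.044, -0.27 and -0.060 in the same order) and Rps27l (-0.084 with the offset and -0.12 with both). With 1 line left out Rpl35 ranged from -0.17 to 0.23 and Rpl36al from -0.044 to 0.29. The cause was not tested. Among the ribosomal protein genes named by rule and the remaining called ones, 720 values over the alternatives stayed on the same side of the threshold with the same sign. Of the others, 120 lost their call and 10 changed sign. Rpl24, named after its values were seen, is not among these genes and was -0.16 with the offset. Strand use and reads shared with pseudogene copies limit single genes. No paired analysis was possible because the labels pair no lines across the groups and give them no shared replicate numbers.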
